A study of Mus musculus with 61 samples.

Results

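Nuclei of D1 neurons, sorted from the nucleus accumbens (ventral striatum), were compared between mice that met morphine for the first time and mice that received saline again. The comparison holds 16 of the 61 libraries of the series, chosen by their labels: 8 of the group SM (repeated saline, then a morphine challenge) and 8 of the group SS (repeated saline, then a saline challenge). All mice were males carrying D1-Cre and the Cre-dependent LSL-eGFP::L10a allele, so that sorted nuclei are those in which the driver has acted, and SM and SS share both alleles. Injections ran over 15 days, withdrawal in the home cage lasted 30 days, and tissue was taken 1 h after the challenge. Doses of 20 and 10 mg/kg appear in the labels but are not tied to mice, and ages are not given. The labels do not say how many mice stand behind a library, so p-values rest on the spread between libraries. In the main edgeR comparison that spread was estimated together with the D1 libraries of mice given repeated morphine.

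D1 neurons are one of the main classes of striatal projection neuron. Their receptor couples to stimulatory G proteins and raises cAMP, and they carry the peptide precursor genes Pdyn and Tac1. Morphine acts at the mu opioid receptor, the product of Oprm1, which couples to the inhibitory Gi/o proteins; it also raises dopamine release in this region by way of inhibitory neurons in the midbrain. Immediate early genes such as Fos are transcribed within minutes of strong activity or cAMP signalling and are a standard readout of an acute stimulus, and morphine raises glucocorticoid hormones, whose receptor drives genes such as Fkbp5 and Sgk1.

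The stretch before the start sites of 3 immediate early genes is shown because cAMP signalling acts on such genes there, and these genes are the main readout of an acute stimulus. The 3 were picked because they hold the element's core. The cAMP response element is bound by CREB, and its core is TGACG, searched here also as its reverse complement CGTCA on the other strand. The sequences are the 140 bases before a RefSeq start site on GRCm38.p6, 5′ to 3′ on the strand of the gene, with matches in capitals: Fos at chr12:85473750-85473889, Nr4a1 at chr15:101266706-101266845 and Homer1 at chr13:93303617-93303756, all on the plus strand.
Fos: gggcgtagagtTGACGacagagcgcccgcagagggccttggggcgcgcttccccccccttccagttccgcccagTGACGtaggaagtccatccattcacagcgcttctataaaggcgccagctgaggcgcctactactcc
Nr4a1: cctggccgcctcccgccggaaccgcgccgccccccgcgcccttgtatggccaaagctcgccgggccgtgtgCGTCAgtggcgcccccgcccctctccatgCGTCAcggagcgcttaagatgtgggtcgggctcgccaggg
Homer1: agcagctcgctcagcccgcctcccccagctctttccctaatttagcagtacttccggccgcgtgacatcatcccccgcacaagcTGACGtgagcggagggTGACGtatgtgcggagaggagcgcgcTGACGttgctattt
Over the 250 bases before the start, 20 of the 30 listed immediate early genes with a window held the core (66.7%), against 19.8% of 27025 genes. The 20 genes that held it had a median log2 fold change, SM against SS, of -0.20 with all libraries and -0.03 without SS replicate 1. For the 10 that did not, the medians were -0.19 and 0.16. A match is a description of the letters and not a sign of binding.

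Totals ran from 14275678 to 25510099 counts per library. Olfactory and vomeronasal receptor genes, whose transcripts belong to sensory neurons of the nose, carried counts in every library. Their density, spread over all genes by length, would account for 33.1% to 86.3% of counts in SM and for 42.3% to 84.2% in 7 SS libraries. SS replicate 1 stood apart with 7.47%. This background share averaged 60.9 ± 16.3% for the 8 SM libraries and 58.0 ± 24.3% for the 8 SS libraries (SD), and the exact two-sided permutation p was 0.799. Without SS replicate 1 the SS mean was 65.3 ± 14.3% (SD, n = 7; exact permutation p = 0.589). The TMM factor, which rescales each library, was 0.405 in SS replicate 1 and between 0.826 and 1.19 in the other 15. The labelled class was checked on its markers. Unscaled CPM, which is the count relative to the library total, of Drd1 ran from 29.7 to 104 in these 16 libraries and from 6.08 to 13.96 in the D2 nuclei of the same treatments, while Drd2 ran from 51.01 to 164 and from 424 to 957. The D2 marker gene Penk was also well above background in these D1 libraries, at 39.7 times without SS replicate 1. Beside it stood 30.3 for Drd1, 11.3 for Pdyn and 9.55 for Tac1, and the D2 marker Gpr6 lay at 7.76 times. Drd2 itself lay at 2.97 and the D2 marker Grik3 at 2.44 times. Of the tested markers, 6 of 9 for D2 and 7 of 9 for D1 reached 2 times. Times background divides by the whole gene span, 5.29 kb for Penk and 67.6 kb for Drd2, so it does not rank genes by amount of RNA. Counts cover whole gene spans, introns included, and whether genomic DNA adds to the nuclear RNA in these counts was not tested. In these libraries fewer nuclei of a type and less RNA per nucleus cannot be told apart.

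**Figure D1:**
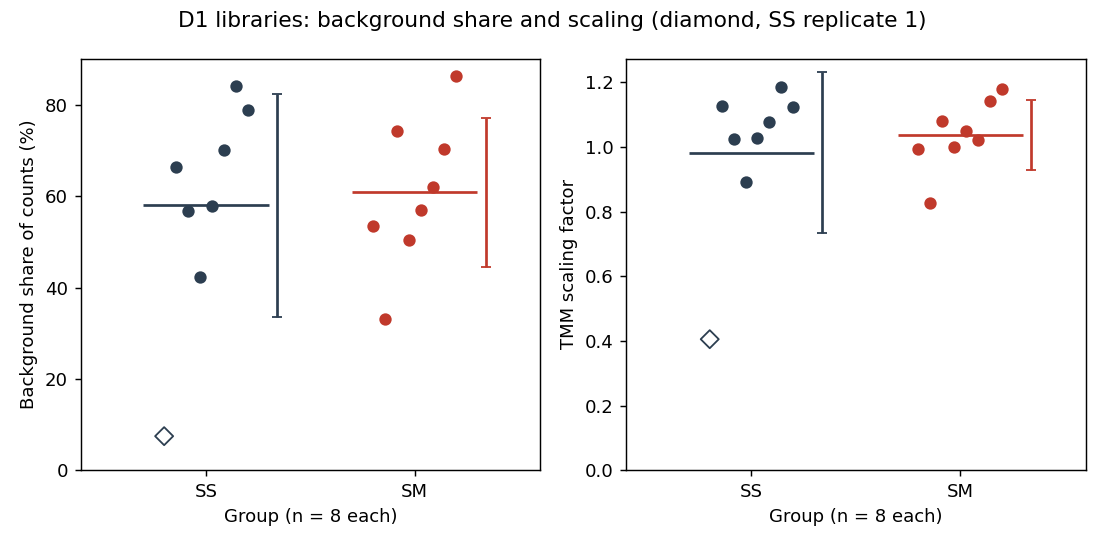
Background share in percent (left) and TMM scaling factor (right) of each library, by group; lines are means, bars beside them are SD over 8 libraries. SS replicate 1 (diamond) lies at 7.47% and 0.405, below the other 15 libraries in both.

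No gene passed edgeR's quasi-likelihood test between SM and SS at an adjusted p under 0.05. Called were 0 of 41083 genes (0%) with all libraries and 0 of 41050 (0%) without SS replicate 1. Unadjusted p-values under 0.05 were held by 770 genes (1.87%; 216 higher, 0.526%, and 554 lower in SM, 1.35%) and by 524 genes (1.28%; 187 higher, 0.456%, and 337 lower, 0.821%), fewer than the 2054 and 2052 that the threshold alone would give. The smallest adjusted p was 0.955 with all libraries and 1 without SS replicate 1. DESeq2 and limma voom also called 0 genes. With all libraries 2861 and 435 genes had an unadjusted p under 0.05, and 514 and 594 without SS replicate 1. DESeq2 ran at its defaults, which replace counts it flags as outliers in groups of this size. Its values with all libraries can thus rest on replaced counts, those of SS replicate 1 included. How many counts were replaced was not examined. The levels of SM and SS did not overlap for 1 gene with all libraries (0.00243%), the pseudogene Selenok-ps1, and for 2 genes without SS replicate 1 (0.00487%), Selenok-ps1 and the gene model Gm14038, all lower in SM. Selenok-ps1 lay between 0.557 and 0.898 CPM in SM and between 1.01 and 2.03 CPM in SS, at an edgeR adjusted p of 0.955. Gm14038 lay between 0.431 and 0.675 CPM in SM and between 0.678 and 1.06 in 7 SS libraries. Reads of the pseudogene can be split with its parent gene, so its value is uncertain. Both genes are named here after their values were seen.

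With all libraries most transcribed genes stood lower in SM, and without SS replicate 1 most stood higher. Among 11739 genes at least 2 times above background, 71.9% had a negative log2 fold change, median -0.19; without SS replicate 1 it was 29% of 11726, median 0.073. Over all tested genes the negative share was 53.2% and 50%. The typical standard error of a gene in this set, the median, was 0.27 and 0.22 on the log2 scale. The genes and lists below are to be read beside these shifts. Fold changes below are log2 values of SM against SS with their SE, given in pairs, first with all 16 libraries and then without SS replicate 1, and intervals are 95% intervals without that library.

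No immediate early gene passed the test between morphine and saline, and the levels of the 2 groups overlapped in those shown here. Fos (ENSMUSG00000021250.13, protein coding, mm10 chromosome 12, 85473890 to 85477273, plus strand) ran from 2.56 through a median of 3.80 to 5.87 TMM-scaled CPM in SM, and from 2.68 through 4.50 to 5.95 in the other 7 SS libraries, with 11.6 in SS replicate 1. The SM values and those of the 7 SS libraries spanned nearly the same range, and SS replicate 1 lay above all. The fold change of Fos was -0.37 ± 0.24 and -0.11 ± 0.21 (edgeR adjusted p = 0.955 and 1), with an interval of -0.54 to 0.32. Npas4 ran from 7.69 through a median of 16.4 to 24.2 CPM in SM and from 6.66 through 12.6 to 42.1 CPM in the other 7 SS libraries, with 61.4 CPM in SS replicate 1. Npas4 is an activity-dependent transcription factor gene of neurons, and its groups overlapped as well, at -0.50 ± 0.39 and -0.061 ± 0.38 (interval -0.83 to 0.71). Arc, which acts on glutamate receptors at the synapse, had -0.86 ± 0.47 and -0.13 ± 0.41. Arc ran from 5.47 through a median of 10.2 to 20.2 CPM in SM and from 5.27 through 9.54 to 31.5 CPM in the other 7 SS libraries, with 77.6 CPM in SS replicate 1. The ranges of Arc overlapped, and its interval, -0.97 to 0.71, holds values on both sides of 0.

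The transcription factor genes Egr1, Nr4a1 and Fosb and the synaptic scaffold gene Homer1 did not pass the test either. Nr4a1 ran from 20.9 through a median of 39.2 to 61.8 CPM in SM and from 17.5 through 31.9 to 79.2 CPM in the other 7 SS libraries, with 222 CPM in SS replicate 1. Its fold change was -0.70 ± 0.39 and -0.014 ± 0.31 (interval -0.66 to 0.63). Homer1 ran from 73.7 through a median of 131 to 194 CPM in SM and from 68.6 through 114 to 203 CPM in the other 7 SS libraries, with 900.0 CPM in SS replicate 1. SM and the 7 other SS libraries overlapped across nearly the whole range for both genes, and the single library above them all was SS replicate 1. Homer1 had -0.75 ± 0.37 and 0.085 ± 0.24. Egr1 had -0.71 ± 0.44 and -0.077 ± 0.40 and Fosb -0.070 ± 0.21 and 0.059 ± 0.20. Of the immediate early list, 35 of 40 genes were lower in SM with all libraries (median log2 -0.20) and 17 of 40 without SS replicate 1 (median 0.015). None of the 40 was called in either analysis (0% of all genes), and 2 and 0 had an unadjusted p under 0.05, against 1.87% and 1.28% of all genes. SS replicate 1 held the highest of the 16 values for 32 of the 40. The mean log2 CPM of the list ran from 2.76 to 3.55 in SM and from 2.75 to 3.73 in 7 SS libraries, with 4.53 in SS replicate 1.

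**Figure D2:**
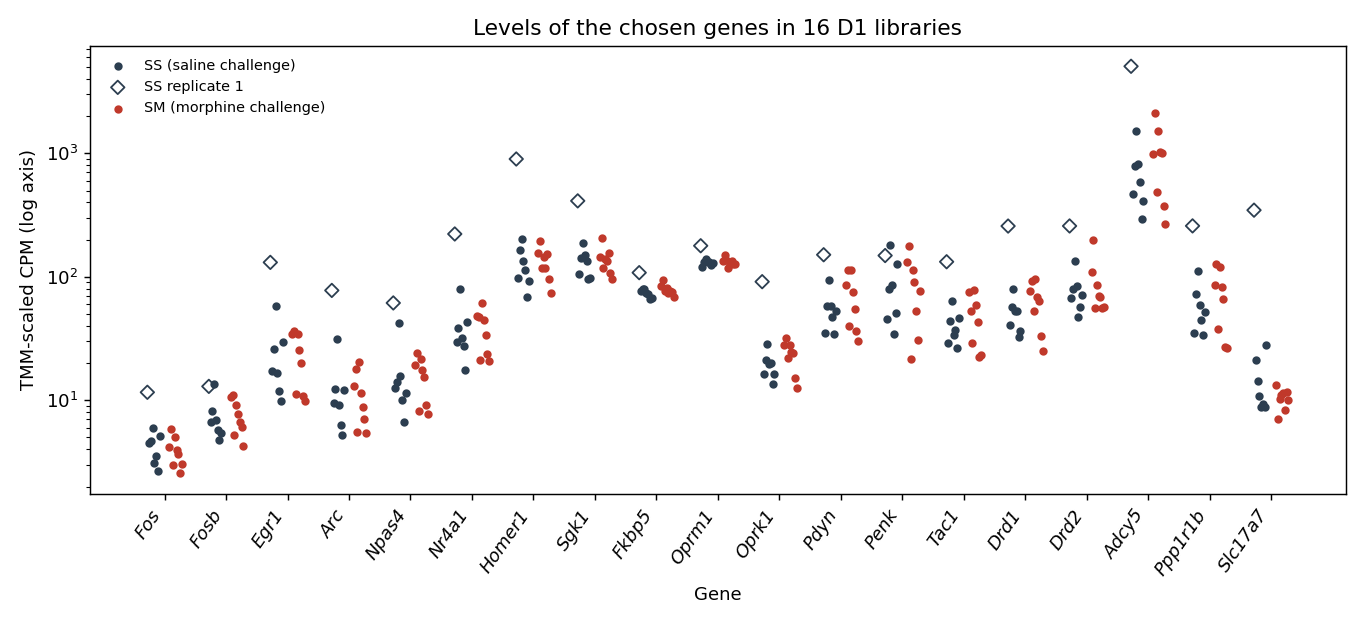
TMM-scaled CPM (log axis) of 19 of the 20 genes chosen for their role, in each of the 16 libraries; red points are SM, dark points SS, and the open diamond is SS replicate 1. The 8 SM points overlap the 7 other SS points for every gene shown, and the diamond lies above them for most.

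No glucocorticoid-responsive gene passed the test. Fkbp5 ran from 69.1 through a median of 77.2 to 94.2 CPM in SM and from 66.4 through 73.8 to 79.6 CPM in the other 7 SS libraries, with 108 CPM in SS replicate 1. Fkbp5, whose product restrains the glucocorticoid receptor, had a fold change of 0.022 ± 0.097 and 0.10 ± 0.068 (interval -0.034 to 0.24), and 3 of 8 SM libraries lay above the 7 other SS libraries. It stood at 1.49 times background without SS replicate 1. Sgk1, a kinase gene that the same receptor drives, had -0.26 ± 0.23 and 0.085 ± 0.18 at 2.68 times background. The transcription factor gene Klf9, the member of this list with the smallest p without that library, had -0.20 ± 0.33 and 0.40 ± 0.26, and Nr3c1, the receptor gene itself, had -0.41 ± 0.20 and 0.0063 ± 0.079. Of this list, 14 of 23 genes were lower in SM with all libraries (median log2 -0.13) and 13 of 23 without SS replicate 1 (median -0.0031), none of them called (0% of all genes). At least 2 times background was reached by 7 of the 23.

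Opioid receptor and peptide genes did not pass the test. The mu receptor gene Oprm1, the target of the drug, lay at 1.07 times background over the 15 other libraries and at 4.53 times in SS replicate 1, where the background was low. Oprm1 ran from 117 through a median of 131 to 149 CPM in SM and from 121 through 131 to 139 CPM in the other 7 SS libraries, with 178 CPM in SS replicate 1. The kappa receptor gene Oprk1 had a fold change of -0.27 ± 0.30 and 0.27 ± 0.21 (interval -0.17 to 0.71), and the delta receptor gene Oprd1 had 0.031 ± 0.10 and 0.14 ± 0.075. Pdyn ran from 30.1 through a median of 65.2 to 114 CPM in SM and from 34.6 through 52.96 to 95.1 CPM in the other 7 SS libraries, with 151 CPM in SS replicate 1. Pdyn, which encodes the precursor of dynorphin, the ligand of the kappa receptor, had 0.052 ± 0.34 and 0.34 ± 0.33 (interval -0.34 to 1.02). Penk, the precursor gene of the enkephalins and a marker of D2 neurons, had -0.11 ± 0.41 and 0.017 ± 0.43. Of this list, 4 of 8 genes were lower in SM with all libraries (median log2 -0.016) and 1 of 8 without SS replicate 1 (median 0.072). Downstream of the receptors, among Gi/o signalling genes, 27 of 29 genes were lower in SM with all libraries (median log2 -0.35) and 8 of 29 without SS replicate 1 (median 0.059). Kcnj3, one of the potassium channel genes through which Gi/o receptors hyperpolarise neurons, had -0.70 ± 0.25 and -0.074 ± 0.070. Its relative Kcnj6 had -0.41 ± 0.18 and -0.062 ± 0.057. Kcnj3 lay at 1.13 and Kcnj6 at 1.66 times background without SS replicate 1, and at 19.5 and 17.1 times in it. In both lists 0 genes were called (0% of all genes) in either analysis.

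Most genes that define D1 and projection neurons had negative fold changes with all libraries and positive ones without SS replicate 1, and passed in neither analysis. Drd1 (ENSMUSG00000021478.6, protein coding, mm10 chromosome 13, 54051183 to 54055705, minus strand) encodes the receptor that names the class. Drd1 ran from 25.2 through a median of 66.02 to 96.1 CPM in SM and from 32.7 through 52.5 to 79.1 CPM in the other 7 SS libraries, with 258 CPM in SS replicate 1. In SM, 2 of 8 libraries lay above the 7 other SS libraries, 1 lay below them, and the rest overlapped them. Its fold change was -0.25 ± 0.38 and 0.35 ± 0.32 (interval -0.30 to 1.00). Adcy5 ran from 266 through a median of 999.8 to 2125 CPM in SM and from 296 through 589 to 1513 CPM in the other 7 SS libraries, with 5071 CPM in SS replicate 1. Adcy5, the main adenylyl cyclase gene of the striatum, had -0.36 ± 0.49 and 0.48 ± 0.43 (interval -0.40 to 1.36). Ppp1r1b, which encodes the phosphatase inhibitor DARPP-32, had -0.22 ± 0.44 and 0.30 ± 0.42, and Tac1, the precursor gene of substance P, -0.10 ± 0.33 and 0.27 ± 0.32. Among dopamine and cAMP signalling genes, 31 of 32 genes were lower in SM with all libraries (median log2 -0.37) and 4 of 32 without SS replicate 1 (median 0.085). Of the D1 markers, 5 of 9 genes were lower in SM with all libraries (median log2 -0.10) and 2 of 9 without SS replicate 1 (median 0.19). Of the D2 markers, 7 of 9 genes were lower in SM with all libraries (median log2 -0.090) and 3 of 9 without SS replicate 1 (median 0.024). Among striatal projection neuron genes, 24 of 24 genes were lower in SM with all libraries (median log2 -0.31) and 1 of 24 without SS replicate 1 (median 0.23), and SS replicate 1 held the highest value for all 24. No member of these lists was called in either analysis (0% of all genes).

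**Figure D3:**
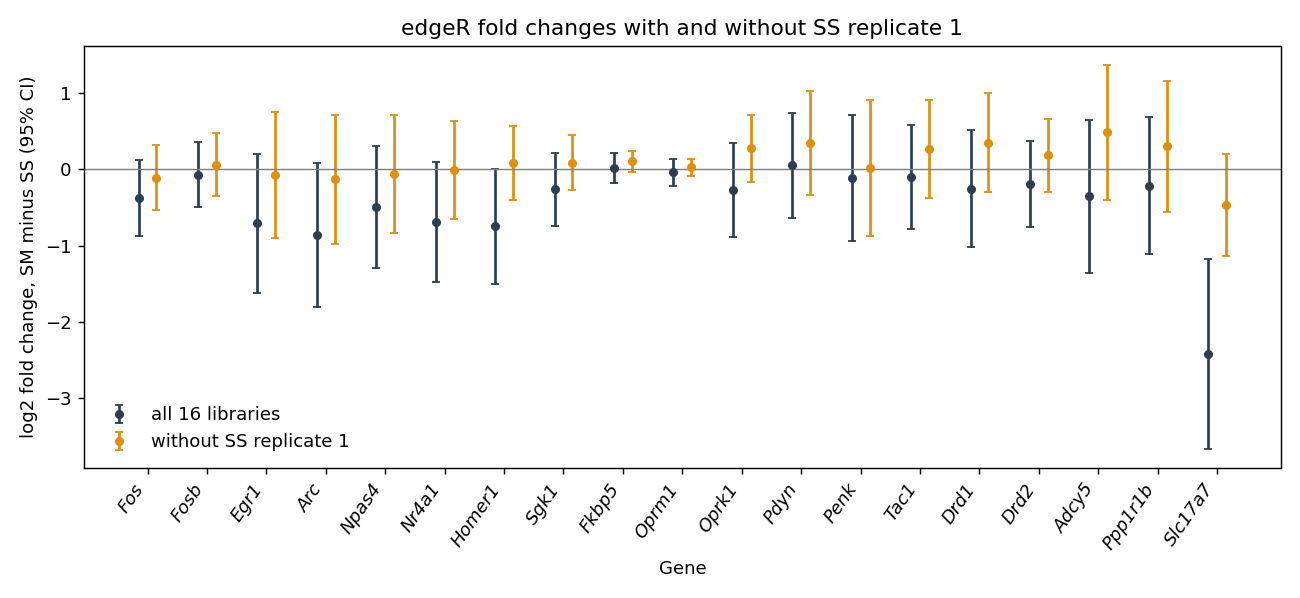
edgeR log2 fold change, SM minus SS, with its 95% confidence interval, for the same genes with all 16 libraries (dark) and without SS replicate 1 (orange). The dark interval of Slc17a7, at -2.42, is the one that leaves out 0, and with the library removed all intervals include 0.

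The genes lower in SM with the smallest p with all libraries, taken by the naming rule, were genes in which SS replicate 1 stood far above the rest. The rule asked for 2 times background over 16 libraries, SS replicate 1 included, and so favoured genes high in that library. Slc17a7 (ENSMUSG00000070570.5, protein coding, mm10 chromosome 7, 45163949 to 45176142, plus strand) encodes the vesicular glutamate transporter of cortical neurons. Slc17a7 ran from 7.10 through a median of 10.7 to 13.3 CPM in SM and from 8.74 through 10.9 to 27.8 CPM in the other 7 SS libraries, with 347 CPM in SS replicate 1. The 15 other libraries overlapped, while SS replicate 1 lay above the highest of them. Its fold change was -2.42 ± 0.61 and -0.47 ± 0.33 (edgeR adjusted p = 0.955 and 1). Ccn2 ran from 0.927 through a median of 1.30 to 2.27 CPM in SM and from 0.982 through 1.59 to 2.54 CPM in the other 7 SS libraries, with 54.6 CPM in SS replicate 1. Ccn2, a matricellular protein gene that marks deep cortical neurons, went from -2.44 ± 0.66 to -0.18 ± 0.31 when that library was left out. Ntng2, an axon guidance gene, went from -1.32 to -0.051, Neurod2, a transcription factor gene of cortical neurons, from -1.12 to -0.31, and the nuclear receptor gene Nr4a2 from -0.98 to -0.17. Without SS replicate 1, Ccn2 lay at 1.04, Ntng2 at 1.54, Neurod2 at 1.25 and Nr4a2 at 1.25 times background, so these genes met the rule only through that library. Of the cortical neuron markers, 11 of 12 genes were lower in SM with all libraries (median log2 -0.30) and 7 of 12 without SS replicate 1 (median -0.020). Their summed level was 514 to 559 CPM in SM, 505 to 561 CPM in 7 SS libraries and 1799 CPM in SS replicate 1. The part of cortical RNA in the values of that library was not tested.

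The genes named for their small p without SS replicate 1 had fold changes, in that analysis, from -0.35 to 0.54 and lay at 1.42 to 3.69 times background. Zfp189 (ENSMUSG00000039634.12, protein coding, mm10 chromosome 4, 49521176 to 49531517, plus strand), a zinc finger gene, had a fold change of 0.14 ± 0.15 and 0.35 ± 0.099 (edgeR adjusted p = 0.955 and 1). Zfp189 ran from 8.31 through a median of 9.67 to 11.996 CPM in SM and from 6.86 through 7.65 to 8.65 CPM in the other 7 SS libraries, with 18.2 CPM in SS replicate 1. Zfp189 was higher in 5 of 8 SM libraries than in any of the 7 other SS libraries, at 1.97 times background. Lefty2 (ENSMUSG00000066652.5, protein coding, mm10 chromosome 1, 180893108 to 180899103, plus strand), which encodes a secreted antagonist of Nodal signalling, had -0.19 ± 0.18 and -0.33 ± 0.096, at 2.20 times background. Lefty2 ran from 4.39 through a median of 5.15 to 6.08 CPM in SM and from 5.93 through 6.48 to 7.84 CPM in the other 7 SS libraries, with 1.06 CPM in SS replicate 1. The ranges of Lefty2 in SM and in those 7 SS libraries met at their ends. Klk7, a kallikrein protease gene, had the smallest p among eligible genes higher in SM with all libraries, at 0.44 ± 0.15 and 0.33 ± 0.11, and 6 of 8 SM libraries lay above the 7 other SS libraries. The cytokine gene Il20 had 0.47 ± 0.17 and 0.36 ± 0.13. Exo5, a DNA exonuclease gene, had 0.16 ± 0.12 and 0.26 ± 0.10, and Hes1, a Notch target gene, -0.58 ± 0.20 and -0.32 ± 0.15. Hes1 lay at 1.45 times background without SS replicate 1, so Hes1 and Zfp189 met the rule of 2 times background only through that library. Over 64 genes taken by the rule, not all of them described here, the 95% intervals without SS replicate 1 lay between -1 and 1 for 55 of them.

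Mitochondrially encoded genes were the one list whose members all had the same sign in both analyses. All 7 that could be tested, of 13 listed, were higher in SM, with a median log2 of 0.38 with all libraries and 0.53 without SS replicate 1. Called were 0 (0% of all genes), while 0 and 3 had an unadjusted p under 0.05, against 1.87% and 1.28% of all genes. mt-Nd5 ran from 10.97 through a median of 16.8 to 32.1 CPM in SM and from 7.47 through 11.97 to 16.3 CPM in the other 7 SS libraries, with 19.3 CPM in SS replicate 1. The gene mt-Nd5, a subunit of complex I, had 0.47 ± 0.25 and 0.56 ± 0.26 (edgeR adjusted p = 0.955 and 1), and 5 of 8 SM libraries lay above the 7 other SS libraries. mt-Nd6 ran from 2.06 through a median of 4.005 to 6.56 CPM in SM and from 1.80 through 2.48 to 4.10 CPM in the other 7 SS libraries, with 6.38 CPM in SS replicate 1. The gene mt-Nd6 had 0.43 ± 0.29 and 0.63 ± 0.29. In D2 nuclei SM against SS gave 0.80 ± 0.32 for mt-Nd5 and 0.94 ± 0.39 for mt-Nd6 (SE), and neither passed there. These genes share 1 genome and are not independent of each other. As a share of all counts they made up 0.0270 ± 0.0120% in SM and 0.0186 ± 0.00328% in SS (SD, n = 8 each; exact two-sided permutation p = 0.0573, and 0.0643 without SS replicate 1). Mitochondria lie outside the nucleus, and where these counts come from was not tested.

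Markers of other cells lay mostly near background. At least 2 times background was reached by 2 of 12 striatal interneuron, 2 of 12 oligodendrocyte, 2 of 10 astrocyte, 0 of 10 microglia and 0 of 9 endothelial markers, and by 2 of 12 cortical markers. None of these genes was called in either analysis (0% of all genes). The astrocyte glutamate transporter gene Slc1a2 had -0.82 ± 0.30 and -0.014 ± 0.060, SS replicate 1 standing at 752 CPM against at most 114 CPM in SM and 113 in the other SS libraries. The oligodendrocyte transcription factor gene Olig1 had 0.36 ± 0.22 and 0.55 ± 0.20, at 0.990 times background. Among potassium and sodium channel genes, 30 of 30 genes were lower in SM with all libraries (median log2 -0.50) and 4 of 30 without SS replicate 1 (median 0.15). Among glutamate receptor genes, 23 of 24 genes were lower in SM with all libraries (median log2 -0.37) and 5 of 24 without SS replicate 1 (median 0.094). Among GABA receptor genes, 13 of 14 genes were lower in SM with all libraries (median log2 -0.37) and 2 of 14 without SS replicate 1 (median 0.098).

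**Figure D4:**
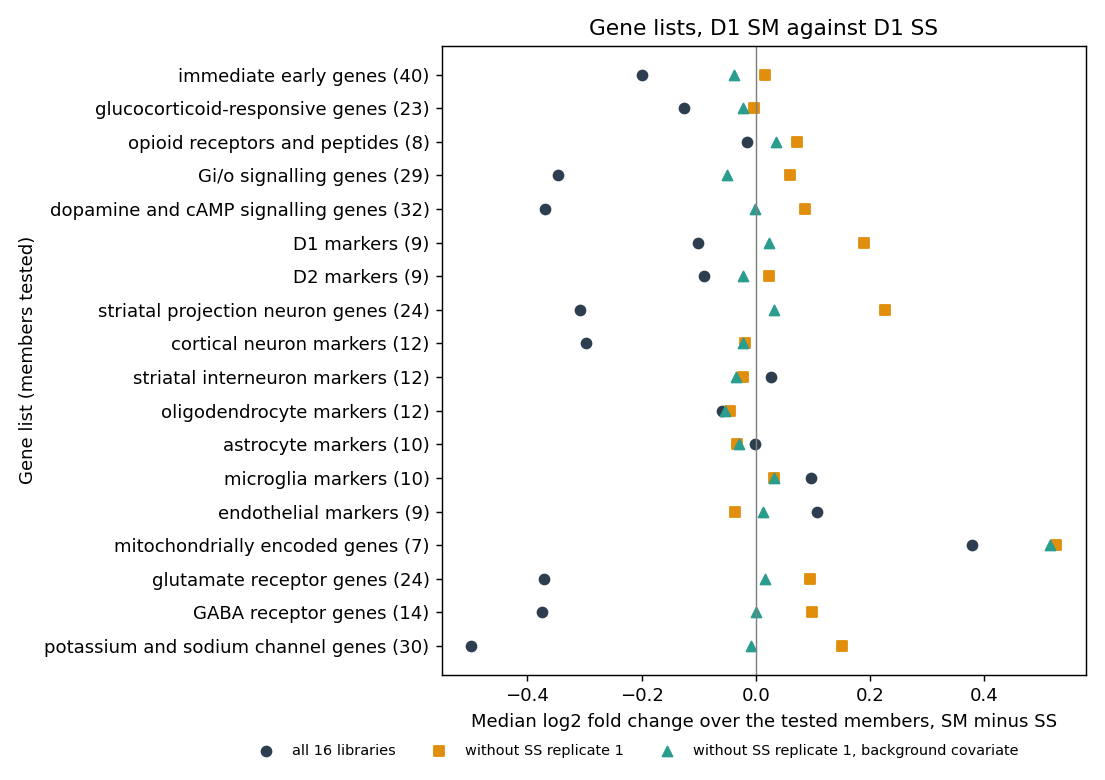
Median log2 fold change, SM minus SS, over the tested members of each of 18 gene lists, with all libraries (circles), without SS replicate 1 (squares) and without it with the background share as a covariate (triangles). Neuronal lists lie below 0 in the circles, except the striatal interneuron markers at 0.027, and mostly above 0 in the squares, and the triangles lie near 0 except for the mitochondrially encoded genes at 0.52.

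Levels of the neuronal lists were lower in libraries of a higher background share, within SM and within SS, except those of the striatal interneuron and cortical markers. The interneuron list had r = 0.085 (permutation p = 0.761) and rho = -0.043 (permutation p = 0.883), with -0.42 within SM and 0.39 within SS. Over the 15 libraries without SS replicate 1, the mean log2 CPM of the immediate early genes fell with the background share, with Pearson r = -0.85 (permutation p = 0.00013, adjusted over 18 lists 0.000213) and Spearman rho = -0.89 (permutation p = 4e-05). It was -0.89 within the 8 SM libraries, -0.81 within the 7 SS libraries and -0.86 without the 2 libraries farthest from the median share. For the striatal projection neuron genes r was -0.96 (permutation p = 1e-05, the smallest that 100000 draws can give) with rho = -0.93 (permutation p = 1e-05), -0.97 within SM, -0.95 within SS and -0.94 without the 2 farthest. Both measures are shares of the same total, so that a larger background lowers the CPM of transcribed genes by construction. Cortical markers, which lay mostly near background, had r = 0.64 (permutation p = 0.0093, adjusted 0.012), rho = 0.62 (permutation p = 0.0152), 0.69 within SM, 0.63 within SS and 0.52 without the 2 farthest. The rise was not particular to them. Of other lists mostly near background, endothelial markers had r = 0.91 and astrocyte markers 0.74, while oligodendrocyte markers had -0.29 and microglia markers -0.18. Here too both measures are shares of the same total, so these p-values are no test of cortical RNA. With SS replicate 1 included, r over 16 libraries was -0.92 for immediate early genes, -0.98 for projection neuron genes and -0.54 for cortical markers, so that the last turned sign with that library. SS replicate 1, with the lowest share, continued the trend of the immediate early and projection neuron lists and lay above all others in the cortical list.

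**Figure D5:**
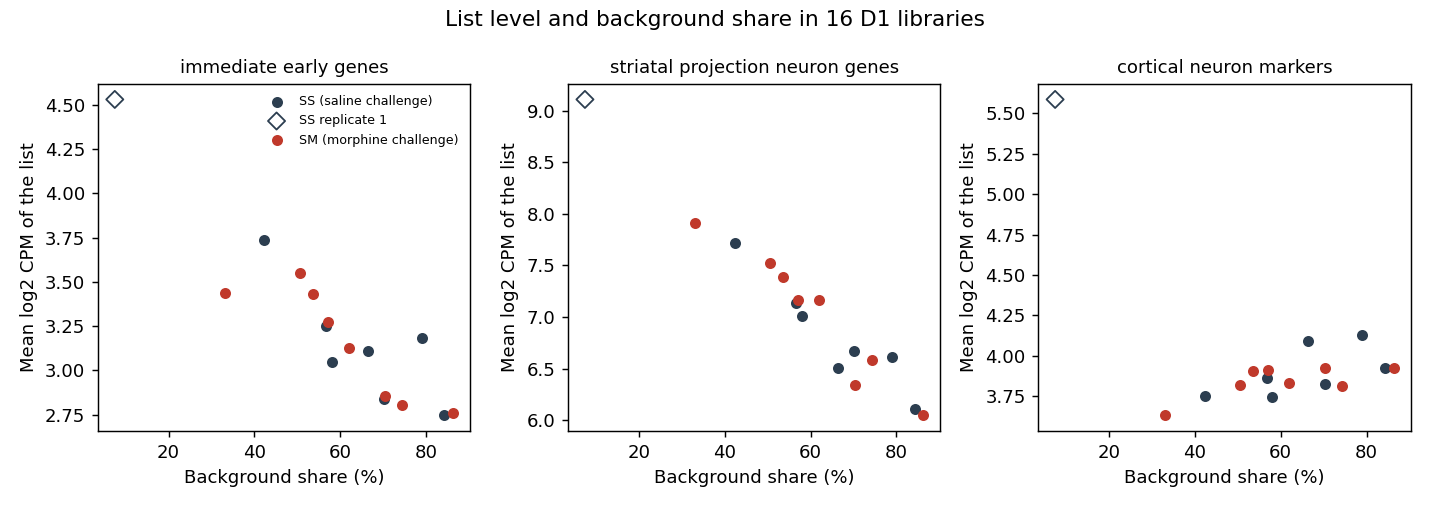
Mean log2 CPM of 3 lists against the background share in percent, each point 1 library (red SM, dark SS, diamond SS replicate 1). Immediate early and projection neuron lists descend from left to right in both groups, while the cortical list is flat to slightly rising apart from the diamond at 5.59.

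A further measure, chosen after seeing the data, took the background off each gene by its length and rescaled what remained, leaving 11739 genes in limma. Again 0 genes were called, with 127 at an unadjusted p under 0.05 with all libraries and 203 without SS replicate 1. The median log2 over all of them was 0.0018 and -0.057, against -0.19 and 0.073 in CPM. On this scale SS replicate 1 lay above all other libraries for 5 of 36 named genes, against 24 of 36 in CPM, below all for 13 and among them for 18. Drd1 stood at 148 ± 28.9 scaled counts in SM (SD, n = 8), 136 ± 22.4 in SS (SD, n = 7) and 112 in SS replicate 1. Slc17a7 stood at 13.6 ± 5.81 in SM (SD, n = 8), 28.7 ± 31.4 in SS (SD, n = 7) and 151 in SS replicate 1, which remained the highest. Fos had a log2 difference of -0.25 ± 0.24 with all libraries and -0.31 ± 0.25 without that library (SE, limma adjusted p = 1 in both). Of 26 immediate early genes on this scale 7 were higher in SM in either case, with medians of -0.069 and -0.13. Over all genes on this scale, 5934 of 11739 were higher in SM with all libraries and 4353 of 11739 without SS replicate 1. The 7 D1 markers had medians of 0.097 and 0.0033.

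The response to the challenge was also compared with that in mice of a morphine history, and with D2 nuclei from mice carrying D2-Cre and the same reporter allele. The first is the difference MM against MS minus SM against SS, where MM and MS are mice given repeated morphine and then morphine or saline; 0 of 41083 genes (0%) passed in edgeR with all libraries and 0 of 41050 (0%) without SS replicate 1, with 952 (2.32%) and 629 (1.53%) at an unadjusted p under 0.05. Npas4 had the difference 1.82 ± 0.56 with all libraries and 1.39 ± 0.52 without it (SE, edgeR adjusted p = 0.781 and 1), and Fos 1.02 ± 0.34 and 0.76 ± 0.29. Larger than in Npas4 was the difference in the cortical gene Slc17a7, at 3.71 ± 0.84 and 1.77 ± 0.46 (SE). Neurod2 had 1.70 ± 0.51 and 0.91 ± 0.25, at 1.25 times background without SS replicate 1. None of these genes passed. In D2 nuclei SM against SS gave 0 of 41125 called genes (0%; 1333, 3.24%, at an unadjusted p under 0.05). The difference of the response between D2 and D1 passed for 0 of 42870 genes (0%; 1053, 2.46%, at an unadjusted p under 0.05), and for 0 of 42833 without SS replicate 1 (992, 2.32%). Fos had a log2 of -0.17 ± 0.15 (SE) in D2, and its difference from D1 was 0.20 ± 0.30 with all libraries and -0.052 ± 0.27 without that library.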

How the data were processed

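The authors used featureCounts, DESeq2 and the build mm10, per the submitters' processing notes. Not given in the sources used here are aligner, annotation, versions and strandedness of counting, so values of overlapping or antisense genes are uncertain. Per the labels' protocols, nuclei were sorted by fluorescence and a stranded kit for small RNA inputs was used. The authors deposited raw counts, which were tested, and FPKM values, which served only for gene lengths: for 54281 of 54281 identifiers these equalled the whole gene span in GENCODE M21 (relative tolerance 1e-06). Of 55401 identifiers, 55141 matched that release.

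edgeR 4.0.16 in R 4.3.3 (TMM, filterByExpr, robust quasi-likelihood, two-sided, Benjamini-Hochberg adjusted p under 0.05) was fitted over the 32 D1 libraries, and jointly with D2 for the comparison of cell types. SE is the log2 fold change over the root of the F statistic. Background is the density of counts over 1420 olfactory and vomeronasal receptor genes. Alternatives used DESeq2 1.42.0, limma 3.58.1, other scaling, filters, a background covariate, a replicate block and left-out libraries. Scripts were tested on simulated data. No pair of libraries of the same group lay within sampling noise (smallest chi-square per gene 2.47). Members and the 18 gene lists (311 of 312 genes in the file) were chosen with earlier results of these data known. Genes were named by a rule: 20 chosen for their role, in each direction the 6 of smallest p with and without SS replicate 1 (at least 2 times background over 16 libraries, at least 1 log2 CPM, without gene models, pseudogenes, mt-, Rpl and Rps genes), and the member of each list with the smallest p in each analysis. Further genes taken by the rule are left out of all counts and not reported here. Elsewhere, times background and the set of genes at least 2 times above it leave out SS replicate 1, a choice made after seeing the data.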

Additional observations from a re-analysis of the deposited data

Results flagged for a closer look

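Single libraries stood far from the other 7 of their group by Dixon's test in 56 of 136 group values, where chance would give about 1 in 20 of values not chosen for this. That rate is no measure for SS replicate 1, which was known to stand apart and drove the choice of some of these genes. SS replicate 1 accounts for 48 of the 56 values. Its TMM factor was 0.405. Above its group, in TMM-scaled CPM, it held Fos 11.6, Egr1 131, Arc 77.6, Nr4a1 222, Homer1 900.0, Fkbp5 108, Sgk1 412, Oprm1 178, Oprk1 91.3, Tac1 132, Drd1 258, Drd2 258, Adcy5 5071, Ppp1r1b 258, Slc17a7 347, Ccn2 54.6, Ntng2 495, Neurod2 19.9, Nr4a2 74.1, Mapk11 59.01, Zfp189 18.2, Peak1os 20.9, Hes1 6.87, Sox4 8.42, Nr3c1 243, Klf9 217, Oprd1 38.6, Kcnj3 445, Kcnj6 599, Pde4a 565, Pde7b 1992, Sfxn1 257, Grik3 2195, Arpp21 3033, Rasd2 229.7, Olig1 1.93, Slc1a2 752, P2ry12 46.9, Gabbr2 1255, Kcnc2 472 and Kcnn3 707. Below its group it held Klk7 1.45, Il20 2.03, Lefty2 1.06, Zfp202 13.6, Aqp4 3.77 and Ly6c1 0.871. SS replicate 8 stood apart for Vip 6.56 CPM.

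In SM, replicate 2 stood above its group for Drd2 198, Peak1os 23.6, Grik3 390.4, Arpp21 764, Gabbr2 349.7 and Kcnn3 373 CPM, and replicate 7 for Ttc39aos1 2.61 CPM. SM replicate 2 had the lowest background share of SM, 33.1%, and its part in these levels was not tested.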

How the results depend on the processing

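No setting called a gene: edgeR, DESeq2 and limma gave 0 in every alternative of the 3 comparisons. Unadjusted counts for SM against SS rest on different numbers of tested genes. They ran from 127 of 11739 (counts above background) to 2861 of 41083 (DESeq2). DESeq2 size factors gave 2227 of 41083 and the background covariate 1183 of 41083. Without a filter on low counts it was 1139 of 55310, and with only these 16 libraries 202 of 38872. Leaving out 1 library gave 517 (without SM replicate 8) to 2011 (without SS replicate 7), and 440 to 893 where SS replicate 1 was out as well. The labels do not say whether replicate numbers pair the libraries. Correlations of deviations ran from -0.74 to 0.82, with 3 of 8 best with their own number, which does not settle it. With the replicate block 0 genes were called and 181 of 38872 had an unadjusted p under 0.05, or 530 of 39253 without replicate 1. The background share difference, SM minus SS, went from 2.85 to -4.37 percentage points and that of the TMM factor from 0.0535 to -0.0285 without SS replicate 1. Medians of lists stayed within 1 SD between libraries except the striatal interneuron markers, at -0.18 and -0.24 in counts above background, which hold 2 of its 12 genes. That SD includes SS replicate 1 and is widened by it, so it is a loose measure. Staying within it did not keep the sign. Without SS replicate 1 the median went from -0.50 to 0.15 in channel genes and from -0.31 to 0.23 in projection neuron genes. Without SS replicate 1, 23 of 64 named genes changed sign. No filter on low counts and only the 16 libraries changed the sign of 0 named genes. With DESeq2 size factors, 6 of 64 named genes changed sign: Fkbp5 -0.092, Tsc22d3 -0.00086, Pdyn -0.13, Zfp189 -0.0089, Peak1os -0.011, Oprd1 -0.087. With DESeq2, 14 of 64 named genes changed sign: Homer1 0.070, Fkbp5 -0.10, Tsc22d3 -0.015, Pdyn -0.16, Zfp189 -0.027, Peak1os -0.066, Nr3c1 0.0031, Oprd1 -0.095, Pde4a 0.033, Pde7b 0.27, Grik3 0.030, Arpp21 0.21, Gabbr2 0.014, Kcnn3 0.21. By default this run replaced counts that DESeq2 flags as outliers. In edgeR without SS replicate 1 the values were Homer1 0.085, Nr3c1 0.0063, Pde4a 0.028, Pde7b 0.29, Grik3 0.024, Arpp21 0.22, Gabbr2 0.014 and Kcnn3 0.22. The other genes of this group also changed sign with DESeq2 size factors. With limma voom, 4 of 64 named genes changed sign: Klf9 0.051, Rasd2 0.064, Aqp4 0.043, Grin2c 0.074. With the background share as a covariate, 18 of 64 named genes changed sign: Fosb 0.066, Homer1 0.012, Sgk1 0.044, Tsc22d3 -0.012, Oprm1 0.00051, Oprk1 0.20, Tac1 0.21, Drd1 0.27, Drd2 0.088, Adcy5 0.37, Ppp1r1b 0.22, Klf9 0.31, Pde7b 0.22, Sfxn1 0.086, Arpp21 0.10, Rasd2 0.42, P2ry12 0.0052, Kcnn3 0.14. With that covariate and no SS replicate 1, 11 of 64 named genes changed sign: Oprm1 0.019, Oprk1 0.13, Tac1 0.061, Drd1 0.12, Drd2 0.0034, Adcy5 0.14, Klf9 0.19, Pde7b 0.16, Sfxn1 0.014, Rasd2 0.21, Kcnn3 0.063. With the replicate number as a block (16 libraries), 5 of 64 named genes changed sign: Adcy5 0.00085, Klf9 0.050, Rasd2 0.067, Aqp4 0.044, Grin2c 0.063. Log2 values with 1 library left out, for the 29 genes whose sign changed at least once, ran as follows: Fosb -0.17 to 0.081, Homer1 -0.88 to 0.085, Sgk1 -0.37 to 0.085, Tsc22d3 -0.042 to 0.099, Oprm1 -0.071 to 0.025, Oprk1 -0.37 to 0.27, Penk -0.35 to 0.089, Tac1 -0.24 to 0.27, Drd1 -0.36 to 0.35, Drd2 -0.48 to 0.18, Adcy5 -0.63 to 0.48, Ppp1r1b -0.39 to 0.30, Nr3c1 -0.49 to 0.0063, Klf9 -0.39 to 0.40, Pde4a -1.002 to 0.028, Pde7b -0.46 to 0.29, Sfxn1 -0.29 to 0.14, Grik3 -1.18 to 0.024, Arpp21 -1.07 to 0.22, Rasd2 -0.39 to 0.54, P2ry12 -0.28 to 0.057, Gabbr2 -0.57 to 0.014, Kcnn3 -0.40 to 0.22, Aqp4 -0.14 to 0.051, Fkbp5 -0.020 to 0.10, Pdyn -0.095 to 0.34, Peak1os -0.24 to 0.54, Grin2c -0.13 to 0.076, Oprd1 -0.0049 to 0.14. Named genes were recomputed only under the alternatives listed at the start. None of these signs belongs to a called gene, and the cause of each change was not tested. What depth limits was not tested; 28 of the 64 lay under 2 times background without SS replicate 1. The counts above background, the fits without SS replicate 1 by other tools and the block without it were added after seeing the data.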

Other observations

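Across 11480 genes, the log2 fold changes of SM against SS in D1 and in D2 nuclei, which share no library, had Pearson r = -0.18 with all D1 libraries and r = 0.23 without D1 SS replicate 1. This is a description across genes, which are not independent replicates. Each library was compared by rank correlation with the median of the others, with SS replicate 1 left out of every median. In counts above background the correlation was lowest in SM replicate 8, at 0.820, and SS replicate 7, at 0.871. These are the libraries with the highest background shares of their groups. In SS replicate 1 it was 0.919. In CPM the correlation was lowest in SS replicate 1, at 0.933, and between 0.972 and 0.988 in the other 15.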
